A study of Mus musculus with 9 samples.

Results

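The genes described here encode the microtubule motors kinesin and cytoplasmic dynein and their partner complex dynactin. They were taken from the count table by gene symbol: the Kif genes, the kinesin light chains Klc1 to Klc4, the cytoplasmic dynein subunits Dync1 and Dync2, the dynein light chains Dynll, Dynlrb and Dynlt, and the dynactin subunits Dctn1 to Dctn6. This gave 74 of the 54325 gene symbols in the table, carried by 423 of its 140658 transcripts. By role they comprised 44 heavy chains (42 of kinesins and 2 of dyneins), 13 light chains (9 of dynein and 4 of kinesin-1), 5 dynein intermediate or light intermediate chains and 6 dynactin subunits. The symbols also took in the kinesin-binding protein Kif1bp, which is no motor, and 5 pseudogene or antisense entries.

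Kinesins and dynein step along microtubules by hydrolysing ATP, most kinesins towards the plus end and dynein towards the minus end. The motor domain lies in the heavy chain, a long polypeptide, whereas the light chains are small proteins that hold the complex together or bind cargo. In neurons kinesin-1, kinesin-2 and kinesin-3 carry vesicles and organelles down the axon, dynein with dynactin carries cargo back to the soma, and a further set of kinesins builds and orients the mitotic spindle in dividing cells. UPF1 is the RNA helicase at the centre of nonsense-mediated mRNA decay (NMD), and its phosphorylated form, p-UPF1, accumulates on mRNAs that are being targeted for decay.

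The RIP-seq libraries come from N2A cells, which are a neuroblastoma line of the mouse, after 2 h in okadaic acid at 200 nM. This agent blocks protein phosphatases, all groups compared here carry it, and no untreated cells enter. Fragments cleaved with RNase I were sequenced from 3 libraries in each of 3 groups: input RNA, RNA recovered with control rabbit IgG (rIgG IP) and RNA recovered with antibody to p-UPF1 (p-UPF1 IP). The replicate libraries carry numbers, but the sources used here do not say that they come from separate cultures, so p-values measure only the spread between these libraries. Total counts ranged from 25184464 to 29857955 in input, from 5312526 to 6246110 in the p-UPF1 IP and from 79010 to 474491 in the rIgG IP. A gene needs 0.100 to 0.119 CPM (counts scaled to the library total) to reach 3 counts in input, 0.480 to 0.565 CPM in the p-UPF1 IP and 6.32 to 38.0 CPM in the rIgG IP, and these floors cover counting error only. Of 15 neuronal or neuroblastoma markers, 11 to 12 had at least 10 counts in each input library, whereas of 14 markers of other cell types only Pecam1 and Mbp did. Fewer cells and less RNA per cell cannot be told apart in such bulk samples.

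Several light chain genes have close copies in the genome, and the sequence of the copies decides which counts can be assigned to 1 gene. Dynll1 (chr5:115297110-115300999, minus strand, GRCm38) and Dynll2 (chr11:87979525-87987533, minus strand) each have a coding sequence of 270 nt, stop codon included. Their coding sequences were 81.11% identical, with 51 differing bases. The first 30 coding bases (from GENCODE transcripts) are shown because the genes lay on opposite sides in the comparison below, and capitals mark the bases at which Dynll2 differs from Dynll1.
Dynll1: atgtgcgaccggaaggcggtgatcaaaaat
Dynll2: atgtCTgaccggaaggcAgtgatcaaGaaC
With 5 of 30 bases different, fragments of 25 to 50 nt from this stretch can be told apart. Fragments from most of the Dynlt1 coding sequence cannot. Dynlt1b (chr17:6430112-6436296, plus strand) differed from Dynlt1a (chr17:6307994-6317500, minus strand), from Dynlt1c and from Dynlt1f at 1 base of a coding sequence of 342 nt. That base is in capitals here.
Dynlt1b: atggaagacttccaggcctcagaggagact
Dynlt1a: atggaagacttccaggcctcCgaggagact
Of the 35-nt windows over all transcripts of each gene, 69.1% in Dynlt1a, 85.8% in Dynlt1b, 85.9% in Dynlt1c and 91.8% in Dynlt1f also occurred in another gene, against 0% in Dynll2 and 6.49% in Dynll1. Values of single Dynlt1 genes are therefore uncertain, and they are also given as 1 sum. The spindle kinesins Kifc1 and Kifc5b shared 52.5% and 48.0% of their windows with other genes and are treated in the same way.

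Of the 74 genes, 16 had at most 3 counts in every library, and 7 of them had none in any. They were Kif1a, Kif12, Kif16b, Kif17, Kif19a, Kif21a, Kif27, Kif28 and Kif2b among the heavy chains, the dynein subunits Dync1i1 and Dynlrb2, and the pseudogenes and antisense entries. Kif1a, the main axonal carrier of synaptic vesicle precursors in neurons, had 0 counts in each input library, and Dync1i1, the intermediate chain typical of neurons, had 0, 1 and 0. The widely expressed counterparts were present: Kif1b had 2483, 2378 and 2553 input counts and Dync1i2 had 497, 514 and 498. To set genes beside each other, the counts of each transcript were divided by its own length and then summed per gene. The highest input levels then belonged to Dynll1, at 43.0 ± 1.07 CPM per kb (SD, n = 3), and to Dynlt1b, at 20.8 ± 2.99 CPM per kb. Kif1b followed at 16.1 ± 1.12, Dctn2 at 15.9 ± 0.913, Dync1li2 at 14.5 ± 0.853 and Dync1h1 at 14.4 ± 2.48 CPM per kb. The order within these 4 lay inside their spread.

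To ask which motor mRNAs were recovered with p-UPF1, gene counts of the p-UPF1 IP and of input were compared by edgeR's quasi-likelihood test after TMM scaling, with adjustment over all genes. "Higher" and "lower" below mean a Benjamini-Hochberg adjusted p under 0.05, and "enriched" and "depleted" mean in addition a log2 fold change beyond 1 in either direction. Of the 74 genes, 60 had a summed count of at least 10 and were tested. The 14 others are those named above as nearly without counts, except Kif17 and Kif28, which just reached the sum. In the p-UPF1 IP 23 were higher and 14 lower, against a background of 26.3% of all tested genes higher and 35.7% lower. Of these, 17 were enriched and 10 depleted, against 17.3% and 26.5% of all genes. The median log2 fold change was 0.23 over the 60 genes and −0.42 over all 16919 genes tested. Scaling by library totals alone raised the median of all genes by 0.41 and gave 32 motor genes higher and 11 lower, and of all genes 5709 higher and 4364 lower where TMM gave 4451 and 6040.

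**Figure D1:**
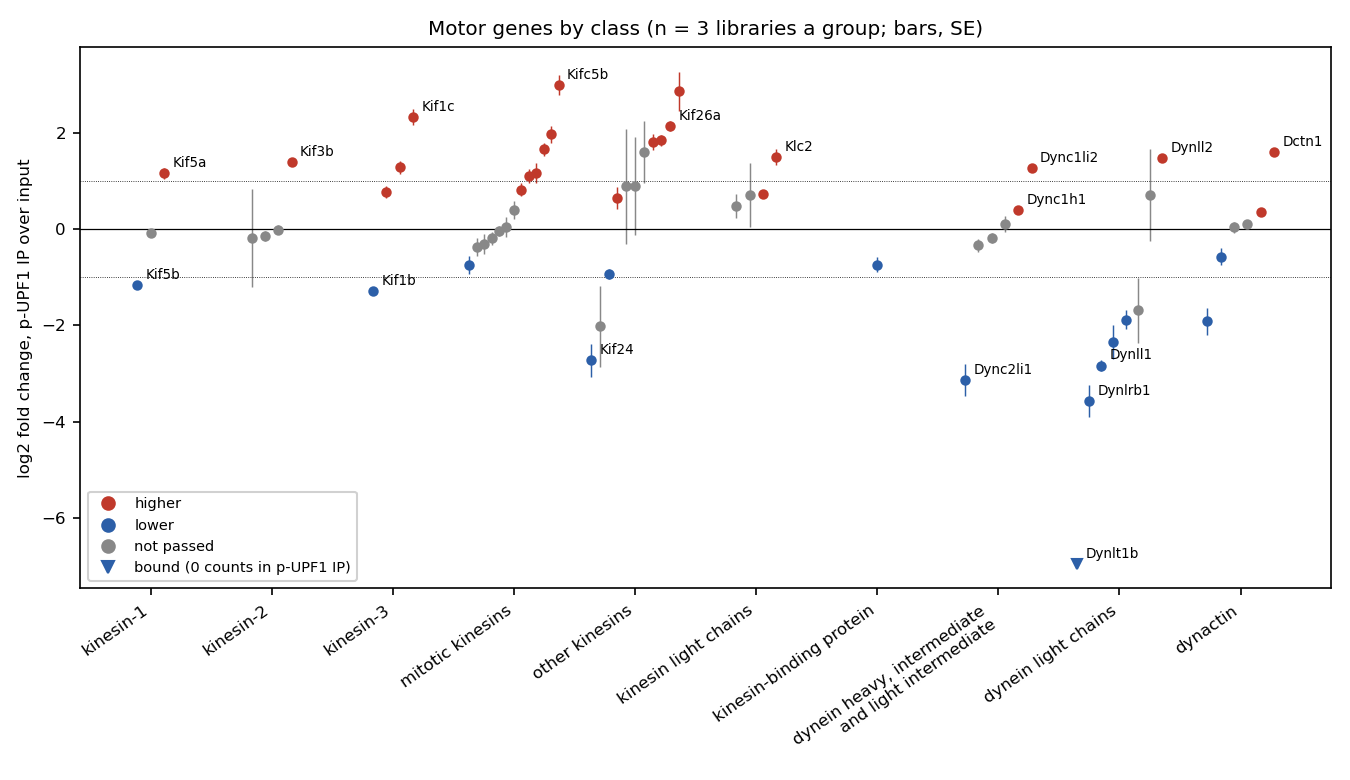
The log2 fold change of each tested motor gene (p-UPF1 IP over input) is plotted by class, with the SE as a bar, red for higher, blue for lower and grey for genes that did not pass. Of the 8 tested dynein light chains 5 lie in blue, with Dynlt1b at its bound, whereas both kinesin light chains that passed lie above 0.

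Of the 37 tested heavy chains 17 were higher and 5 lower, with a median log2 fold change of 0.65. Of the 12 tested light chains 3 were higher and 5 lower, with a median of −0.60. Without the 4 Dynlt1 genes, whose single values are uncertain, 8 tested light chains were left. Of these 3 were higher and 3 lower, and the median was 0.59, on the other side of 0. The light chains did not move as a group. The median was −2.11 over 8 dynein light chains, the Dynlt1 genes included, and 0.72 over 4 kinesin light chains. The difference between the lists was not tested, since their members were chosen with results known.

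The dynein heavy chain Dync1h1, the ATPase of cytoplasmic dynein-1, was the most counted motor gene. It had 3886, 3563 and 3803 input counts and 1179, 1469 and 1629 in the p-UPF1 IP. Scaled by library total and TMM factor, this was 160 ± 8.20 CPM in input and 210 ± 16.7 CPM in the p-UPF1 IP (SD, n = 3). Every p-UPF1 IP library lay above every input library. From here on, CPM values of input and the p-UPF1 IP are scaled by TMM in this way. The floors and the CPM per kb above use library totals alone. The difference was 1.31-fold (log2 fold change 0.39 ± 0.08 SE, adjusted p = 0.00132, edgeR). Dync2h1, the heavy chain of the dynein that runs in cilia, had 143, 120 and 183 input counts and 33, 52 and 54 in the p-UPF1 IP, and its log2 fold change of 0.11 ± 0.16 did not pass (adjusted p = 0.571, edgeR).

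The light intermediate chains, which link the dynein heavy chain to adaptors, went separate ways. Dync1li2 had 667, 706 and 760 input counts and 425, 566 and 491 in the p-UPF1 IP, or 30.3 ± 1.27 and 73 ± 4.32 CPM, without overlap. It was 2.41-fold higher (log2 fold change 1.27 ± 0.07, adjusted p = 1.80e-07, edgeR). Dync1li1 had 261, 264 and 287 input counts and 57, 52 and 77 in the p-UPF1 IP. Its log2 fold change of −0.33 ± 0.13 did not pass (adjusted p = 0.0520, edgeR), and it passed as lower with 4 of 13 alternative settings. The ratio of Dync1li2 to Dync1li1 counts was 2.56 to 2.67 in the input libraries and 6.38 to 10.9 in the p-UPF1 IP libraries. Dync1i2, the intermediate chain that binds dynactin, gave −0.19 ± 0.10 (adjusted p = 0.139, edgeR). The light intermediate chain of ciliary dynein, Dync2li1, had 60, 59 and 68 input counts and 1, 3 and 2 in the p-UPF1 IP. Summed over libraries and scaled, this was 8.99-fold lower in the p-UPF1 IP, with a 95% exact counting interval of 4.05 to 24.8 (adjusted p = 1.79e-05, edgeR).

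**Figure D2:**
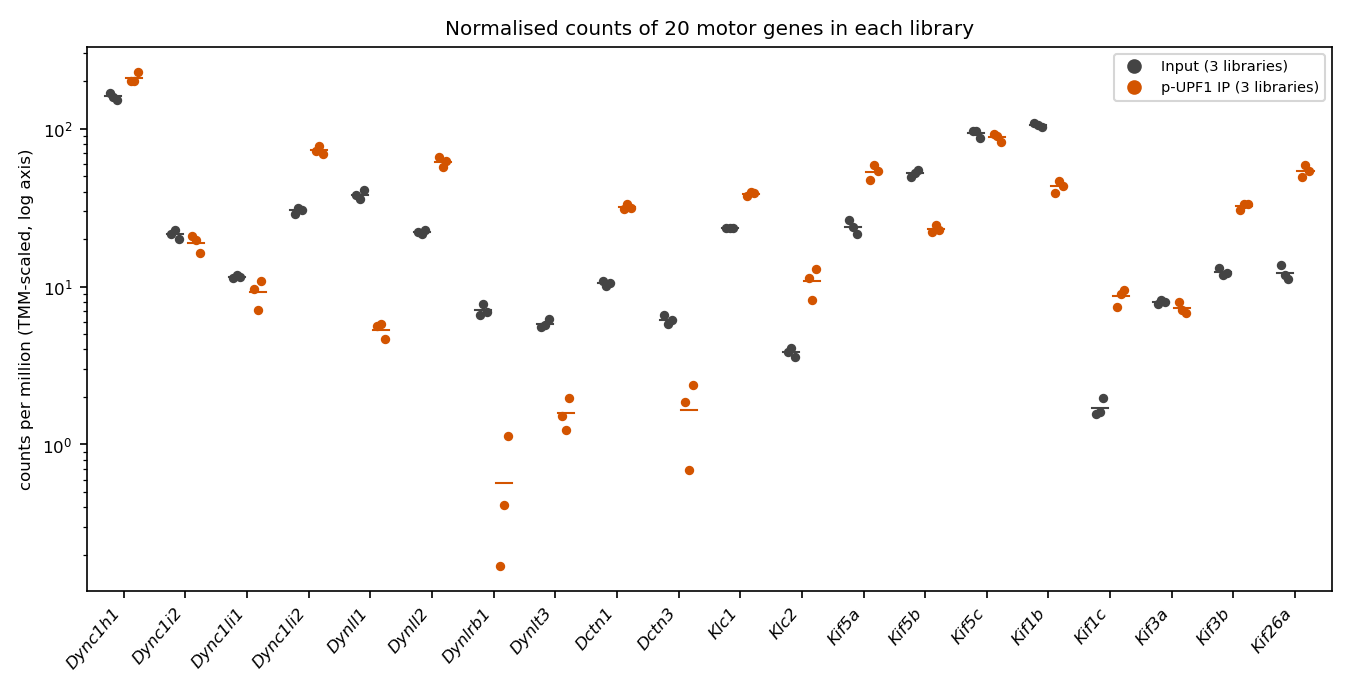
Normalised counts (CPM, TMM-scaled, log axis) of 20 motor genes are shown for each input library in grey and each p-UPF1 IP library in orange, with the group mean as a line. Dync1h1 and Dync1li2 sit higher in all p-UPF1 IP libraries, Dynll1 and Dynlrb1 lower, and Dynll2 moves opposite to Dynll1.

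Among the light chains of dynein, Dynll1 and Dynll2 encode near-identical LC8 proteins that dimerise many partners besides dynein. Dynll1 had 870, 798 and 1020 input counts and 33, 42 and 33 in the p-UPF1 IP. Its level was 38.1 ± 2.67 CPM in input and 5.34 ± 0.60 CPM in the p-UPF1 IP, 7.15-fold lower (log2 fold change −2.84 ± 0.11, adjusted p = 1.13e-08, edgeR). Dynll2 had 508, 484 and 568 input counts and 391, 415 and 441 in the p-UPF1 IP. Its level was 22.2 ± 0.599 CPM in input and 61.8 ± 4.67 CPM in the p-UPF1 IP, 2.78-fold higher (log2 fold change 1.48 ± 0.08, adjusted p = 8.55e-08, edgeR). In input there were 0.557 to 0.607 counts of Dynll2 for each of Dynll1, and in the p-UPF1 IP there were 9.88 to 13.4. Both groups of libraries stood far apart in this ratio.

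Dynlrb1, Dynlt3, Dynlt1b and Dynlt1f were lower as well. Dynlrb1, a roadblock light chain, had 152, 173 and 173 input counts and 1, 3 and 8 in the p-UPF1 IP (log2 fold change −3.57 ± 0.33, adjusted p = 5.16e-06, edgeR). Dynlt3, a Tctex light chain, had 127, 127 and 156 input counts and 9, 9 and 14 in the p-UPF1 IP, a log2 fold change of −1.88 ± 0.20 (adjusted p = 1.35e-05, edgeR). Neither gene's libraries overlapped between groups. Dynlt1b had 472, 412 and 405 input counts and 0 in each p-UPF1 IP library, so that it was at least 124-fold lower against a floor of 3 counts over the group. Its near-copy Dynlt1f had 298, 235 and 402 input counts and 6, 12 and 35 in the p-UPF1 IP (log2 fold change −2.34 ± 0.36, adjusted p = 0.000228, edgeR). Dynlt1a and Dynlt1c had at most 53 counts in any library and did not pass, with log2 fold changes of −1.68 and 0.72. Since these genes share most of their sequence, the sum is the sounder value. The 4 Dynlt1 genes together had 820, 673 and 868 input counts and 15, 24 and 39 in the p-UPF1 IP (log2 fold change −3.13 ± 0.19, adjusted p = 2.02e-07, edgeR).

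The kinesin light chains, which bind the tail of kinesin-1 and its cargo, had positive log2 fold changes in all 4 genes, of which 2 passed. Klc1 had 543, 523 and 583 input counts and 221, 290 and 277 in the p-UPF1 IP, which is 23.5 ± 0.134 against 38.8 ± 1.2 CPM (log2 fold change 0.73 ± 0.07, adjusted p = 6.78e-06, edgeR). Klc2 had 88, 92 and 89 input counts and 67, 60 and 92 in the p-UPF1 IP, which is 3.84 ± 0.268 against 10.9 ± 2.41 CPM (1.5 ± 0.17, adjusted p = 2.26e-05, edgeR). In both genes every p-UPF1 IP library was above every input library once scaled. Klc3 and Klc4 had values of 0.71 and 0.48 and did not pass, though Klc4 was higher with library totals alone.

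Dynactin ties dynein to cargo and makes it processive. Its largest subunit Dctn1, also called p150Glued, which binds microtubules, had 248, 227 and 264 input counts and 184, 242 and 223 in the p-UPF1 IP. This was 10.5 ± 0.333 against 32.0 ± 1.11 CPM, 3.04-fold higher (log2 fold change 1.60 ± 0.08, adjusted p = 4.41e-08, edgeR). Dctn4 was higher by a smaller step (0.35 ± 0.08, adjusted p = 0.00349, edgeR). The small shoulder subunit Dctn3 was lower, with 152, 129 and 153 input counts and 11, 5 and 17 in the p-UPF1 IP (−1.91 ± 0.28, adjusted p = 0.000174, edgeR). Dctn6 was lower by −0.57 ± 0.18 (adjusted p = 0.0194, edgeR), its libraries overlapped between groups, and the call was lost when any of 4 libraries was left out (input replicate 1 or 3, p-UPF1 IP replicate 1 or 3) and with library totals alone. Dctn2, or dynamitin, and Dctn5 gave 0.10 and 0.04 and did not pass, but passed as higher when only library totals were used.

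Among kinesin-1 heavy chains, which carry vesicles and mitochondria, the 3 genes took 3 positions. Kif5a had 608, 537 and 535 input counts and 279, 432 and 381 in the p-UPF1 IP, or 24.0 ± 2.48 against 53.4 ± 6.01 CPM (log2 fold change 1.16 ± 0.10, adjusted p = 4.54e-06, edgeR). Kif5b, the form made in most cells, had 1143, 1169 and 1357 input counts and 130, 180 and 161 in the p-UPF1 IP, or 52.1 ± 2.39 against 23.2 ± 1.39 CPM (−1.17 ± 0.08, adjusted p = 5.30e-07, edgeR). Kif5c had 2235, 2171 and 2173 input counts and 550, 656 and 586 in the p-UPF1 IP, and its log2 fold change of −0.08 ± 0.08 did not pass (adjusted p = 0.366, edgeR). With library totals alone, Kif5c was higher. For each Kif5b count there were 0.394 to 0.532 of Kif5a in input and 2.15 to 2.40 in the p-UPF1 IP.

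Kinesin-2 is a dimer of Kif3a with Kif3b or Kif3c and drives transport in cilia and axons. Kif3b had 301, 264 and 305 input counts and 181, 243 and 235 in the p-UPF1 IP, or 12.4 ± 0.658 against 32.4 ± 1.48 CPM (log2 fold change 1.39 ± 0.08, adjusted p = 1.72e-07, edgeR). Its partner Kif3a gave −0.14 ± 0.11 (adjusted p = 0.345, edgeR) and Kif3c −0.01 ± 0.10 (adjusted p = 0.931, edgeR). Kif3c became higher with library totals alone, Kif3a under none of the alternatives.

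Of 4 tested kinesin-3 genes, which carry vesicle precursors, 3 were higher and 1 lower. Kif1b had 232, 341 and 309 counts in the p-UPF1 IP beside the input counts given above, or 106 ± 2.79 CPM in input against 43.2 ± 3.75 (log2 fold change −1.28 ± 0.08, adjusted p = 2.40e-07, edgeR). Kif1c, which carries integrins and dense-core vesicles, had 36, 36 and 49 input counts and 44, 65 and 68 in the p-UPF1 IP, or 1.71 ± 0.221 against 8.66 ± 1.09 CPM (2.33 ± 0.17, adjusted p = 8.62e-07, edgeR). Kif13a and Kif13b had log2 fold changes of 0.77 ± 0.13 and 1.29 ± 0.14. For each Kif1b count there were 0.0145 to 0.0192 of Kif1c in input and 0.190 to 0.220 in the p-UPF1 IP.

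The spindle kinesins gave a mixed picture, with 6 of 13 higher, 1 lower and 6 not passing. Kif11, the motor that slides spindle poles apart, was lower, with 304, 312 and 438 input counts and 70, 49 and 60 in the p-UPF1 IP (−0.75 ± 0.18, adjusted p = 0.00510, edgeR), a call that was lost with library totals alone. Kif20a and Kif23, both needed for cytokinesis, gave −0.04 and 0.39 and did not pass, although with library totals alone both were higher. Kif2c, which takes tubulin off microtubule ends at the kinetochore, had 67, 67 and 78 input counts and 48, 76 and 71 in the p-UPF1 IP (1.66 ± 0.14, adjusted p = 2.62e-06, edgeR). Kif15, Kif18b and Kif22 were higher by 1.17, 1.11 and 0.83 on the log2 scale. Kifc1, a minus-end motor that focuses spindle poles, and Kifc5b had log2 fold changes of 1.98 and 3.00. Their sum had 103, 91 and 133 input counts and 171, 135 and 163 in the p-UPF1 IP (2.33 ± 0.16, adjusted p = 7.42e-07, edgeR).

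Of 11 other tested kinesins 5 were higher and 2 lower. Kif26a, an atypical kinesin that does not hydrolyse ATP, had 317, 265 and 279 input counts and 292, 429 and 384 in the p-UPF1 IP, or 12.3 ± 1.35 against 54.2 ± 4.70 CPM (log2 fold change 2.14 ± 0.10, adjusted p = 4.06e-08, edgeR). Kifc3, a minus-end motor of epithelial junctions, and Kif7, which organises the cilium tip in Hedgehog signalling, were higher by 1.85 ± 0.11 and 1.82 ± 0.16. Kifc2, another minus-end motor, was higher with only 9, 10 and 7 input counts and 25, 14 and 16 in the p-UPF1 IP. Kif21b gave 0.65 ± 0.22 (adjusted p = 0.0275, edgeR) and lost the call under 5 of 13 alternatives. Kif2a, a microtubule depolymerase of growing neurites, was lower by −0.93 ± 0.10 (adjusted p = 1.65e-05, edgeR), and the second lower gene, Kif24, is treated separately below. Kif1bp, the kinesin-binding protein, was lower by −0.74 ± 0.15 (adjusted p = 0.00175, edgeR), a call that was lost with library totals alone. Kif26a, Kif5a, Kif3b, Kif1b, Kif13a, Kif13b and Dynll2 are on the study's list of NMD targets, which was drawn in part from these libraries and is not independent evidence. Of these, Kif1b was lower in the p-UPF1 IP at the gene level and the others were higher. The study, however, quantified its RIP-seq per transcript. In Kif1b, ENSMUST00000133526.1 had 0 counts in each input library and 20, 19 and 20 in the p-UPF1 IP. This transcript of 730 nt is annotated as a retained intron and has no coding sequence. Reads that it shares with other Kif1b transcripts can only be divided by estimate. Whether it placed Kif1b on the list was not tested. The transcript was enriched (adjusted p = 0.00472, edgeR), a call that was lost with the replicate number as a block. The coding transcripts ENSMUST00000060537.12 and ENSMUST00000055647.14 of Kif1b, among others, were depleted.

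In sum over genes, the heavy chains had 14396, 13885 and 15028 input counts and 4052, 5152 and 5114 in the p-UPF1 IP, and the light chains 3164, 2918 and 3504 against 757, 866 and 924. The heavy to light chain ratio was 4.55, 4.76 and 4.29 in the input libraries and 5.35, 5.95 and 5.53 with p-UPF1, so that the groups did not overlap. The means were 4.53 ± 0.235 and 5.61 ± 0.306 (SD, n = 3), 1.24-fold apart. The size and even the direction of this ratio depended on which genes entered. With the kinesin light chains left out, the means were 5.79 ± 0.381 and 9.68 ± 0.720. Without Dync1h1 and Dynll1, the most counted gene of each kind, the ratio was lower in the p-UPF1 IP, at 4.66 ± 0.187 in input and 4.12 ± 0.307. In the rIgG IP the light chains had 43, 21 and 1 counts and the heavy chains 272, 132 and 86, which is too few for a ratio in the shallowest library, where Kif24 gave 45 of the 86. In rIgG IP replicates 1 and 2 the ratio was 6.33 and 6.29, above every p-UPF1 IP library, and without Kif24 it was 5.19 and 4.24, below every p-UPF1 IP library.

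**Figure D3:**
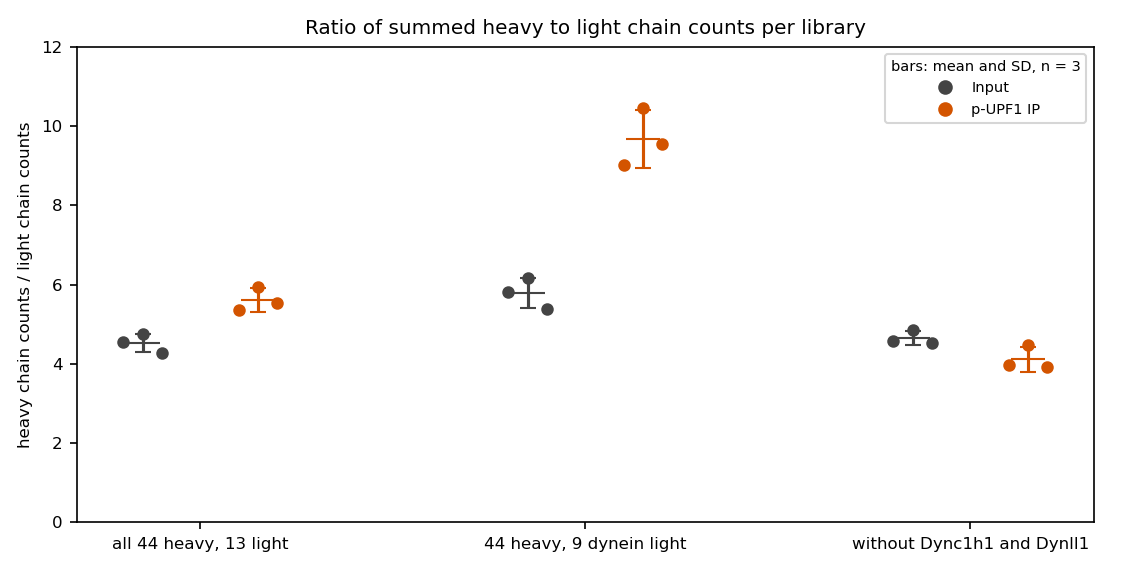
Summed heavy chain counts over summed light chain counts are plotted per library for input (grey) and the p-UPF1 IP (orange), with mean and SD. The p-UPF1 IP lies above input for all genes and more so with dynein light chains only, and below it once Dync1h1 and Dynll1 are left out.

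The light chains are encoded by shorter mRNAs than the heavy chains, with medians of 2249 nt for the 12 tested light chains and 4858 nt for the 37 tested heavy chains, so the fold changes were set beside length and base composition. Across the 60 tested genes, the log2 fold change correlated with mRNA length at a Spearman rho of 0.30 and a Pearson r of 0.43 on log10 length, and with GC content at 0.52 and 0.33. Over the 12685 tested genes with an annotated coding transcript the rho was 0.19 for length and 0.42 for GC content. These are correlations across genes measured in the same libraries, and genes are not independent replicates. Length and GC content split the motor genes differently. Within the 37 heavy chains the rho was −0.15 for length and 0.66 for GC content, whereas within the 12 light chains it was 0.73 for length and 0.41 for GC content. These 12 include Dynlt1a, Dynlt1b, Dynlt1c and Dynlt1f, whose single values are uncertain. For the length of the 3′ UTR the rho was 0.10 over the 60 genes.

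All 5 tested motor genes with mRNAs under 1000 nt were lower in the p-UPF1 IP: Dynlt1b, Dynlt1f, Dynlrb1, Dctn3 and Dctn6. Among them, Dynlt1b and Dynlt1f are near-copies whose single values are uncertain, and the call of Dctn6 depended on the setting. Of all 801 tested genes of that length 64.3% were lower, with a median log2 fold change of −1.91, and 10.1% were higher. At the other end, 17 motor genes had mRNAs of 5000 nt or more, of which 8 were higher and 3 lower, where all genes of that length gave 34.9% higher and 34.2% lower. By GC content, 12 of 17 motor genes at 55% or above were higher and 1 was lower, and among heavy chains 9 of 10 were higher and none was lower. All genes of that class gave 50.3% higher and 17.1% lower. Below 45% GC, 1 of 9 motor genes was higher and 4 were lower, where all genes gave 9.24% and 59.6%. Off that order lay, among others, Kif15, higher at 42.7% GC, and Dync1li2, higher at 47.0%. The median GC content was 55.2% in the 23 higher genes, 49.5% in the 14 lower genes and 48.4% in the 23 that did not pass. Length and GC content here are those of the longest coding transcript, which was the most counted one in input for 36 of the 60 genes. For Dynlrb1, the 1 lower gene at 55% GC or above, it had 7, 0 and 0 input counts, whereas the transcript ENSMUST00000109682.8, at 50.1% GC, had 145, 166 and 173. With the most counted input transcript in place of the longest coding one, the rho over the 60 genes was 0.37 for length and 0.54 for GC content. Of 7 motor genes under 1000 nt 6 were then lower, and of 17 at 55% GC or above 12 were higher and 1, Dynll1, was lower. The part of length or GC content in the recovery of any single gene was not tested.

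**Figure D4:**
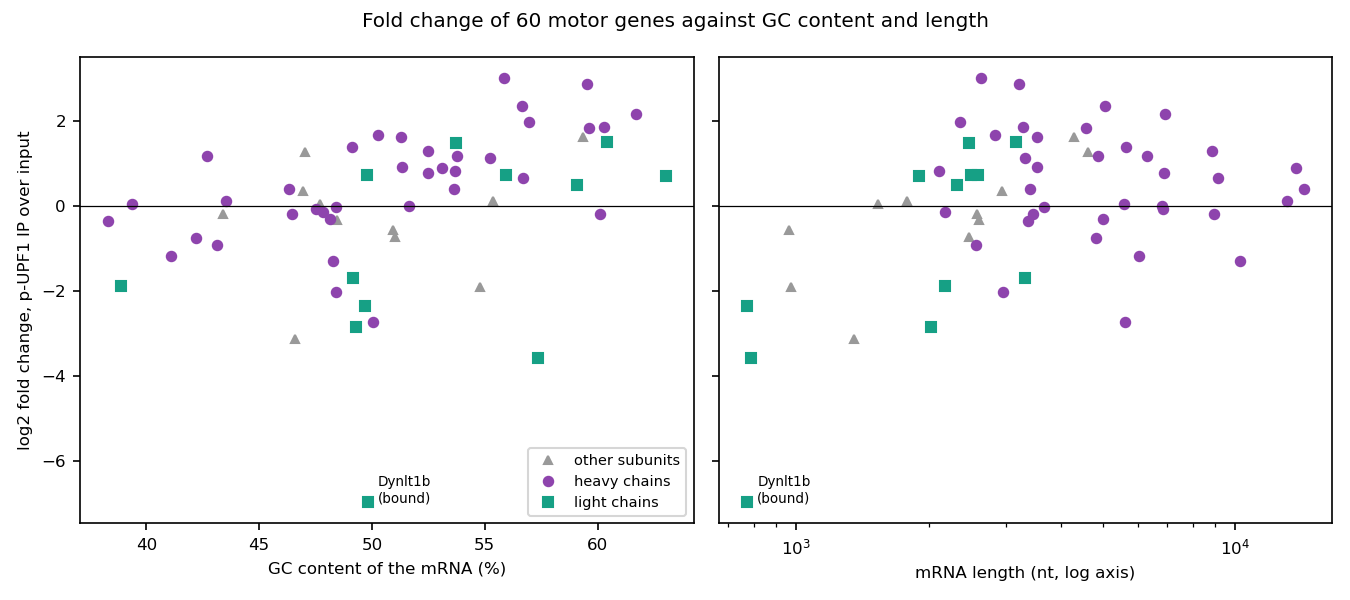
The log2 fold change of the 60 tested motor genes (p-UPF1 IP over input) is plotted against GC content (left) and mRNA length (right, log axis) of the longest coding transcript, with heavy chains as circles, light chains as squares and other subunits as triangles. Heavy chains climb with GC content, and the light chains below 1000 nt lie below 0, with Dynlt1b at its bound and its near-copy Dynlt1f among them.

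The rIgG IP measures RNA recovered without the p-UPF1 antibody, and the comparison with it uses the same p-UPF1 IP libraries as that with input. Over the rIgG IP, 52 motor genes were tested, and 17 were higher and 3 lower in the p-UPF1 IP, against 17.9% and 5.59% of all 12033 tested genes. The median log2 fold change of all genes in this comparison was 0.89 with TMM, 0.62 with RLE factors and 0.25 with DESeq2, and the values that follow are to be read against it. The higher genes were Dync1h1, Dync1li2, Dynll2, Dctn1, Dctn2, Dctn4, Klc1, Klc2, Kif1c, Kif3b, Kif5a, Kif5c, Kif13a, Kif22, Kif26a, Kifc1 and Kifc5b, and the lower were Dynll1, Dynlrb1 and Kif24. Although called higher, Kif5c gave 0.74 ± 0.25 (adjusted p = 0.0309, edgeR), below the median of all genes with TMM. Dynll2 had 8, 4 and 0 counts in the rIgG IP and Dynll1 had 10, 6 and 1. Their log2 fold changes over the rIgG IP were 2.24 ± 0.37 (adjusted p = 6.42e-05, edgeR) and −1.79 ± 0.44 (adjusted p = 0.00387, edgeR). Dync1h1, with 62, 22 and 15 rIgG counts, gave 0.98 ± 0.21 (adjusted p = 0.00108, edgeR), and Kif26a, with 8, 1 and 1, gave 2.31 ± 0.38 (adjusted p = 7.16e-05, edgeR). Klc2, Kifc5b, Kif1c and Kif22 had no count in any rIgG library, so that only bounds hold: at least 3.31-fold, 3.05-fold, 2.64-fold and 1.81-fold higher, against 3 counts over the group. All 4 lost the call without rIgG IP replicate 1, and Kif22 also with DESeq2 and with the replicate number as a block. The lower genes over input were not all lower here, since Kif5b gave −0.40 ± 0.29 (adjusted p = 0.347, edgeR) and Kif1b −0.57 ± 0.27 (adjusted p = 0.136, edgeR). Without rIgG IP replicate 1, the deepest of the 3, 10 motor genes remained higher and only Kif24 remained lower, and DESeq2 kept 11 of the 17 higher genes. The calls fell among all genes too. Of these, edgeR gave 2158 higher and 673 lower with every library, and 1309 and 311 without that replicate. DESeq2 gave 1214 higher and 967 lower. With the replicate number as a block, Dynll1 and Dynlrb1 were no longer called lower, and Dctn4, Kif22 and Kif5c no longer higher. Of all genes 1368 were then higher and 427 lower.

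Between the rIgG IP and input, 1 of 57 tested motor genes was higher and 0 were lower by edgeR, and by DESeq2 as well, against 0.584% and 0.313% of all genes. At an unadjusted p under 0.05 there were 2 higher and 8 lower, against 2.58% and 9.77% of all 16280 tested genes. The gene was Kif24, a kinesin that trims microtubules at the base of cilia. Kif24 had 309, 496 and 288 counts in input, 49, 43 and 45 in the rIgG IP and 7, 20 and 21 in the p-UPF1 IP. Its log2 fold change was 3.63 in the rIgG IP over input (adjusted p = 0.000466, edgeR) and −2.73 ± 0.35 for the p-UPF1 IP over input (adjusted p = 6.48e-05, edgeR). In input and the rIgG IP most of its counts came from 1 transcript of 1151 nt without a coding sequence, annotated as processed (chr4:41454390-41464887, 2 exons). That transcript had 273, 460 and 246 input counts but only 0, 8 and 12 in the p-UPF1 IP. It had 48, 42 and 45 counts in the rIgG IP although the library totals there were 474491, 205177 and 79010, and 40.2% of its 35-nt windows also occurred in other genes. Of 209 transcripts with a mean of at least 20 counts in the rIgG IP, 3 had in replicate 3 at least 0.8 times the count of replicate 1, and this was 1 of them. The other transcripts of Kif24 together had 36, 36 and 42 counts in input, 1, 1 and 0 in the rIgG IP and 7, 12 and 9 in the p-UPF1 IP. Their sum gave −0.24 ± 0.27 for the p-UPF1 IP over input (adjusted p = 0.495, edgeR) and 0.69 in the rIgG IP over input (adjusted p = 0.80, edgeR).

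**Figure D5:**
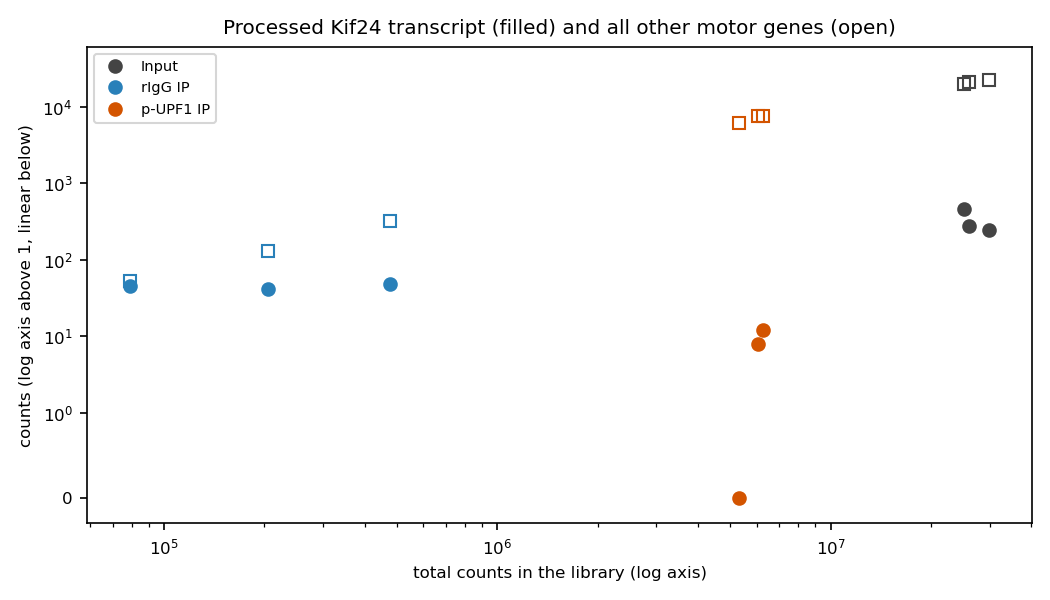
Counts of the processed Kif24 transcript (filled circles) and of all other motor genes together (open squares) are plotted against the total count of each library, both axes logarithmic. The open squares rise with the library total, whereas the filled circles of the rIgG IP stay at 42 to 48 counts.

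At the level of transcripts, 206 motor transcripts were tested over input, and in the p-UPF1 IP 23 were enriched and 35 depleted, against 8.55% and 16.2% of all 42616 tested. In 10 genes an enriched and a depleted transcript stood side by side. How often this occurs among all genes is not given here, so it is not read as a trait of motor genes. In Dctn1, ENSMUST00000113919.9 had 144, 172 and 152 input counts and 0 in each p-UPF1 IP library, whereas ENSMUST00000077407.11 had 0 in each input library and 151, 119 and 115 in the p-UPF1 IP. With the replicate number as a block the former lost its call (adjusted p = 0.0846, edgeR) and the latter kept it (0.0421). Reads from sequence that transcripts share can only be divided by estimate, and the summed value of the gene given above is the firmer one. Of 27 motor transcripts annotated as NMD substrates 13 were tested, and 1 was enriched and 2 depleted. The enriched one was ENSMUST00000146941.1 of Dynll2, with 139, 96 and 126 input counts and 111, 111 and 135 in the p-UPF1 IP (log2 fold change 1.48 ± 0.19, adjusted p = 0.00356, edgeR). The coding transcript ENSMUST00000020775.8 of Dynll2 had a log2 fold change of 2.86 (adjusted p = 0.00424, edgeR) and was enriched too, and ENSMUST00000178105.2 had 228, 221 and 322 input counts and 0 in each p-UPF1 IP library. Kif26a and Kif3b each had their counts in 1 coding transcript, and both transcripts were enriched. On the same counts the log2 fold change of Kif3b was 1.09 for the transcript and 1.39 for the gene. For Kif26a it was 1.84 and 2.14. Transcripts and genes were scaled in separate fits, so their log2 fold changes are not on the same scale. With the replicate number as a block, 9 motor transcripts were enriched and 7 depleted, against 2.52% and 3.42% of all.

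The adaptors and partners of the motors lay on both sides as well. Of 19 tested adaptors and regulators of dynein and dynactin 8 were higher and 6 lower, with a median log2 fold change of 0.38. Bicdl1 and Bicd2, which couple dynein and dynactin to vesicles, were higher by 2.03 and 1.37, and Bicd1 was lower by −1.39 (adjusted p = 2.71e-05, edgeR). Of the actin-related proteins in the dynactin filament, Actr1b was higher by 1.27 and Actr1a by 0.78, and Actr10, which caps its pointed end, was lower (adjusted p = 2.99e-08, edgeR). Actr10 had 401, 367 and 460 input counts and 14, 13 and 17 in the p-UPF1 IP. Pafah1b1, which encodes the dynein regulator Lis1, had 1892, 1871 and 2304 input counts and 170, 199 and 184 in the p-UPF1 IP (−1.66 ± 0.08, adjusted p = 5.04e-08, edgeR). Its partner Ndel1 was higher by 0.35 ± 0.12 (adjusted p = 0.0279, edgeR). Of 15 tested kinesin adaptors and partners 6 were higher and 5 lower, with a median of 0.20. Mapk8ip3, the JIP3 scaffold of kinesin-1 and dynein, had 425, 425 and 449 input counts and 365, 421 and 420 in the p-UPF1 IP (1.69 ± 0.07, adjusted p = 1.59e-08, edgeR). The mitochondrial adaptors Rhot1 and Rhot2 were lower by −0.82 and higher by 1.86, and Kifap3, which binds kinesin-2, was lower by −0.59 ± 0.09 (adjusted p = 0.000275, edgeR). Of 3 partners of ciliary dynein, Tctex1d2 was lower, with 43, 53 and 59 input counts and 0, 0 and 2 in the p-UPF1 IP, and Wdr34 and Wdr60 did not pass.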

How the data were processed

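The authors used fastp for trimming, STAR for mapping (GRCm38) and Salmon for quantification, and deposited estimated counts per transcript, whole numbers that are not scaled for library size (the rounding is not given in the sources used here). Replicates were not pooled, and all columns were matched to a library by name. Counts were summed per gene symbol. Pairs of groups were compared with edgeR 4.0.16 in R 4.3.3 (TMM, quasi-likelihood test, 6 libraries per comparison, summed count of at least 10), which was tested on simulated data. SE values were derived from each fold change with its F statistic. A gene at 0 in a whole group was given a bound against 3 counts over that group. Length, GC content and shared 35-nt windows come from GENCODE M21 transcripts (GRCm38), a release before the one the study used. Length and GC content are those of the gene's longest coding transcript. Shared windows of a gene were taken over all its transcripts. The members, gene lists, subclasses and alternatives were chosen with earlier results of these data known. Named genes were all dynein-1, dynein light chain, kinesin light chain and dynactin genes, 13 transport and mitotic kinesins, members on the study's list of NMD targets, and the other members that passed with at least 10 counts in every input and p-UPF1 IP library (10 qualified). Kif24, Dync2h1, Dync2li1 and Kifc2, single transcripts, the pairs given as ratios and the named adaptors were chosen after their values were seen. Alternatives were RLE factors, DESeq2 1.42.0, library totals, filterByExpr, no filter, all 9 libraries in one fit, a replicate block and leaving out each library. Sums of near-identical genes and values without the processed Kif24 transcript, and length and GC content of the most counted input transcript, were added after seeing the data.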

Additional observations from a re-analysis of the deposited data

How the results depend on the processing

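In the p-UPF1 IP over input, 22 of the 23 higher and 11 of the 14 lower motor genes were called in the same direction in all 14 settings. The exceptions were Kif21b among the higher genes and Dctn6, Kif11 and Kif1bp among the lower. All settings reuse the same libraries, and the share of all called genes that kept their call is not given here. The reversals were Kif20a (0.37), Kif3c (0.40) and Kif5c (0.32 on the log2 scale), which did not pass with TMM and were higher with library totals alone, where the median of all genes lay 0.41 higher. Over the rIgG IP, the counts of motor genes higher were 11 with DESeq2 and 10 to 17 when 1 library was left out, and the counts lower were 1 with the replicate block and 1 to 3 when 1 library was left out. Of all genes, 1214 were higher with DESeq2 and 1309 to 2083 with 1 library left out, where edgeR with TMM gave 2158. Of all genes, 427 were lower with the block and 311 to 711 with 1 library left out, where edgeR with TMM gave 673. For transcripts, 23 to 38 were depleted when 1 library was left out, the lowest without input replicate 3. Of all tested transcripts, 3682 to 6655 were depleted in the same settings. The log2 difference of the heavy to light chain ratio, 0.31 in the p-UPF1 IP over input, was 0.74 with dynein light chains alone, −0.18 without Dync1h1 and Dynll1 and 2.30 as a difference of median log2 CPM, and 0.27 to 0.34 when 1 library was left out. The cause of the changes under DESeq2 and under the block was not tested.

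The replicate numbers come from the labels. Deviations of same-numbered libraries correlated at −0.0016, 0.051 and 0.039 between the p-UPF1 IP and input. Between the p-UPF1 IP and the rIgG IP they correlated at −0.016, −0.013 and −0.030. Between the rIgG IP and input the values were −0.0078, −0.016 and −0.0025. With 3 libraries per group and few counts in the rIgG IP, such values cannot decide whether same-numbered libraries share a culture. With the replicate number as a block, 22 motor genes were higher and 16 lower over input. All genes gave 4344 and 5724 of 16919. Over the rIgG IP 14 motor genes were higher and 1 lower, where all genes gave 1368 and 427 of 12033. The block left 9 motor transcripts enriched and 7 depleted, against 1075 and 1459 of all 42616. The heavy to light difference was 0.31. Depth limits mainly the rIgG IP, in which 23 to 41 of the 74 genes had any count.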

Other observations

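The lists of other cytoskeletal genes gave further values in the p-UPF1 IP over input. Of 14 tested myosin heavy chains, the actin motors, 7 were higher and 4 lower, with a median log2 fold change of 0.47. Myh9, the non-muscle myosin of stress fibres, had 1928, 1861 and 2012 input counts and 1062, 1216 and 1172 in the p-UPF1 IP (log2 fold change 1.05 ± 0.07, adjusted p = 3.04e-07, edgeR). Myo5a, a vesicle motor of neurons, was lower, at −0.52 ± 0.07 (adjusted p = 7.90e-05, edgeR). Of 8 tested axonemal dynein heavy chains, the motors of beating cilia, 1 was higher and 3 were lower. Dnah17 had 32, 20 and 27 input counts and 14, 27 and 19 in the p-UPF1 IP (1.38 ± 0.28, adjusted p = 0.00177, edgeR), and Dnah14 had 30, 42 and 43 in input and none in the p-UPF1 IP.

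Of 14 tested tubulins, the track on which kinesin and dynein run, 9 were lower and 3 higher, with a median log2 fold change of −0.92. Tuba1a had 3557, 3263 and 3825 input counts and 53, 58 and 79 in the p-UPF1 IP (log2 fold change −4.01 ± 0.11, adjusted p = 1.30e-09, edgeR), and Tubb3, the neuronal beta-tubulin, 1363, 1254 and 1318 against 136, 165 and 189 (−1.22 ± 0.09, adjusted p = 8.39e-07, edgeR). Tubulin genes resemble each other in sequence, so values of single tubulins are uncertain. The genes named here were chosen after their values were seen.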
